A study of Mus musculus with 203 samples.

Results

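The cytosolic ribosomal protein genes were followed across single neurons of the mouse nucleus ambiguus. They were taken by symbol from the count table: every row named Rpl or Rps with a number and at most a short suffix, together with Rpsa, Rplp0, Rplp1 and Rplp2. Of 85 such rows, the pseudogenes Rps4l and Rpl32l were left out, the latter called a processed pseudogene by GENCODE and protein-coding by RefSeq. This gave 83 members of 24029 genes in the table, 51 of the large subunit and 32 of the small subunit, on 19 chromosomes. 81 of the 83 members had counts and 2, Rpl26 and Rpl10l, had none in any neuron.

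All neurons came from wild-type C57BL/6 mice (C57BL/6NCrl in the study's methods) of postnatal day 2 to 4 and were labeled by a retrograde tracer, cholera toxin B, that had been injected either into the pericardial space around the heart or into the cricothyroid muscle of the larynx. Each neuron was aspirated alone from a brain slice and carried through Smart-seq2, a full-length cDNA protocol without molecular identifiers. Neurons were divided as in the deposited annotation into 53 ACP (ambiguus cardiopulmonary), 98 ACV (ambiguus cardiovascular) and 52 Larynx neurons. ACP and ACV had both been labeled from the heart, and were separated by clustering on these same counts. The animal behind each neuron is not named, so each type counts as 1 sample. Values over neurons are therefore descriptions with no p-value, and an SD is the spread over neurons, not over animals.

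Total counts per neuron ranged from 542162 to 3292763, and genes detected from 3216 to 12374. Counts outside Rn45s had a median of 1115375 in ACP, 1120512 in ACV and 560892 in Larynx, so Larynx levels rest on fewer counts. Marker genes of the types, which are not independent of the clustering, were high in their own type. The summed ACP markers Calb1, Trhr, Tacr3 and Mc4r had a median of 0.0404% of counts in ACP neurons and 0.000524% in ACV neurons, the ACV markers Bche, Ghsr, Htr3b and Sstr2 a median of 0.0182% in ACV and 0.000153% in ACP, and the Larynx markers Calca, Calcb, Dlk1 and Pnoc a median of 0.244% in Larynx and 0.00443% in ACV. Of 8 general neuronal markers, each had counts in at least 79.6% of the neurons of every type.

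A cytosolic ribosome is built from a small subunit, which decodes the mRNA, and a large subunit, which joins the amino acids. Each holds ribosomal RNA and a set of proteins present mostly in single copy, so that cells need the proteins in matched amounts. Many of the mRNAs for these proteins begin with a C followed by an unbroken run of pyrimidines, the terminal oligopyrimidine (TOP) motif, through which their translation follows mTOR signaling. Rn45s is the gene name for the ribosomal RNA precursor, which RNA polymerase I transcribes and nucleoli process into mature ribosomal RNA. Since the mature RNA is cut from the precursor, counts on Rn45s do not tell them apart. The Rn45s share is therefore not by itself a measure of ribosomal RNA synthesis. How ribosomal RNA came to be read in these libraries was not tested.

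The first bases of the transcripts are shown because a shared start is the feature for which this gene family is known. RefSeq starts (GRCm38.p6, the same assembly as mm10) were listed for 63 of the 83 members. Each line gives 15 bases before and 15 bases after the annotated start, 5′ to 3′ on the strand of the gene. Capitals mark a C within 5 bases of the start together with the 4 or more C or T letters that follow it.
Rps6 (chr4:86857353-86857382, minus strand): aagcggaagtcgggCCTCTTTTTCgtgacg
Rps2 (chr17:24720048-24720077, plus strand): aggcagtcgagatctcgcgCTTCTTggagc
Rps9 (chr7:3704026-3704055, plus strand): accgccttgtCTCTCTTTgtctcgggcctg
Rps27 (chr3:90213634-90213663, minus strand): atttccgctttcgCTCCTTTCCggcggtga
Rps26 (chr10:128626492-128626521, minus strand): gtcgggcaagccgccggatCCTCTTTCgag
Rpl7a (chr2:26910792-26910821, plus strand): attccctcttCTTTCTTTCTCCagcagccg
Rpl18 (chr7:45718056-45718085, plus strand): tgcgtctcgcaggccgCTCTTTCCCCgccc
Rpl38 (chr11:114668565-114668594, plus strand): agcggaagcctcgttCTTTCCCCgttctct
Rpsa (chr9:120127751-120127780, plus strand): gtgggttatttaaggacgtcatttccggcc
Rpl4 (chr9:64173372-64173401, plus strand): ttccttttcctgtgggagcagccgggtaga
Such a tract stood at the annotated start of 29 of 63 members (46%), against 21.2% of the 27025 genes in the same table. With the search widened to 20 bases on either side, which catches starts annotated a few bases off, it stood at 81% of members and 53.3% of all genes. Rpsa and Rpl4, shown last because results below turn on them, had no tract within 5 bases of this annotated start, and in Rpl4 a run of pyrimidines lay upstream of it. In the GENCODE annotation of GRCm38 the protein-coding genes Rpsa and Rpl4 span chr9:120127689-120132369 and chr9:64173375-64178666 on the plus strand, and Rplp0 spans chr5:115559467-115563727 on the plus strand. Members with a tract and members without one had medians of 0.858 and 0.96 counts per 10000 outside Rn45s.

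The members together took about 1% of the counts outside Rn45s in every type, with similar medians and unequal upper tails. Their summed count, given as percent of all counts outside Rn45s, ranged in ACP from 0.284% to 1.65% with a median of 0.846%. In ACV it ranged from 0.368% to 4.73% with a median of 0.922%, and in Larynx from 0.437% to 4.02% with a median of 0.947%. The ranges overlapped almost entirely at the lower end, whereas no ACP neuron exceeded 2%, against 11 of 98 ACV neurons and 5 of 52 Larynx neurons.

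The means were 0.922% ± 0.311 (SD, n = 53 neurons) in ACP, 1.17% ± 0.73 (SD, n = 98 neurons) in ACV and 1.23% ± 0.754 (SD, n = 52 neurons) in Larynx. The mean of ACP was thus 0.312 percentage points below Larynx and 0.246 points below ACV, which is 0.544 and 0.399 of the pooled SD over neurons. ACP was the higher in 39.2% of all ACP-Larynx neuron pairs and in 44.1% of ACP-ACV pairs, and ACV was the higher in 46.5% of ACV-Larynx pairs. All these differences were smaller than the spread between neurons. As percent of all counts, Rn45s included, the means were 0.572% in ACP, 0.659% in ACV and 0.447% in Larynx, so that Larynx became the lowest type. With only the neurons holding at most 900 counts of Apoe, a gene of astrocytes, the ACP-minus-ACV difference shrank to -0.0516 points and the ACV-minus-Larynx difference grew from -0.0665 to -0.355 points. Pooled over neurons the members took 0.89% (exact 95% binomial interval 0.887% to 0.892%) in ACP, 1.05% (1.05% to 1.06%) in ACV and 1.09% (1.09% to 1.1%) in Larynx, and these intervals cover counting error only, since reads without molecular identifiers are not independent molecules.

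**Figure D1:**
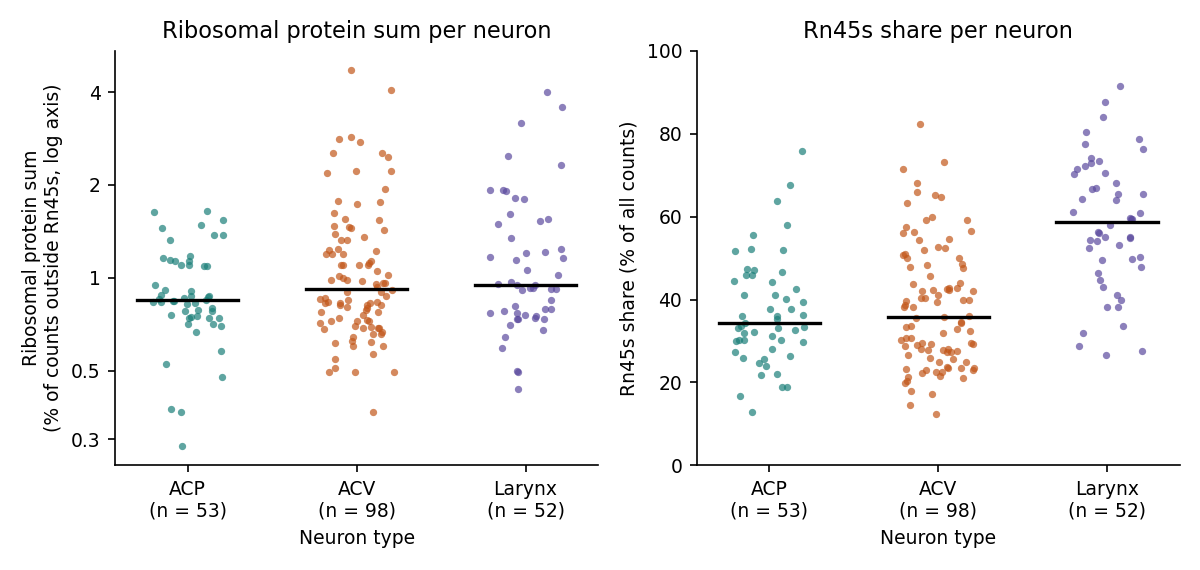
Left, summed counts of the ribosomal protein genes as percent of counts outside Rn45s (log axis) and right, the share of all counts on Rn45s, with 1 point per neuron and a bar at the median of each type. The medians of the sum lay between 0.846% and 0.947%, while the Rn45s share had its median at 58.6% in Larynx against 34.3% in ACP and 35.8% in ACV.

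Rn45s itself took from 13% to 75.9% of all counts in ACP, from 12.4% to 82.5% in ACV and from 26.6% to 91.5% in Larynx. The mean share was 37% ± 12.9 (SD, n = 53 neurons) in ACP, 38.5% ± 14.8 (SD, n = 98 neurons) in ACV and 58.2% ± 15.7 (SD, n = 52 neurons) in Larynx. Larynx neurons therefore carried the higher Rn45s share on the whole, with wide overlap, beside a ribosomal protein sum of about the same median.

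Within ACV and within Larynx, neurons with a larger Rn45s share had a larger ribosomal protein sum, and in ACP this relation was weak. Spearman's rho was 0.66 in ACV (n = 98), 0.65 in Larynx (n = 52) and 0.16 in ACP (n = 53). Pearson's r was 0.55, 0.59 and 0.23 in the same order. Without the 2 neurons farthest from the median Rn45s share of each type, rho was 0.65 in ACV, 0.62 in Larynx and 0.16 in ACP. The fitted line rose by 0.272 percentage points of ribosomal protein sum per 10 points of Rn45s share in ACV, by 0.282 in Larynx and by 0.056 in ACP. Whether the types differ in this slope was not tested.

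**Figure D2:**
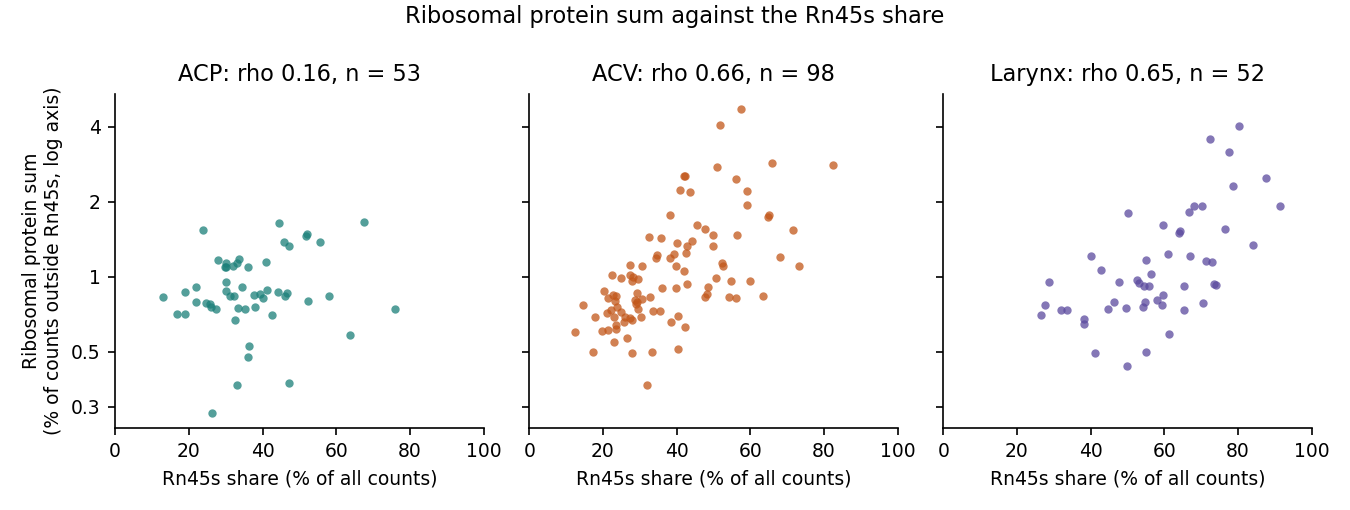
Ribosomal protein sum (percent of counts outside Rn45s, log axis) against the Rn45s share (percent of all counts), 1 point per neuron and 1 panel per type. The cloud climbs to the right in ACV (rho 0.66) and Larynx (rho 0.65), and in ACP stays between 0.284% and 1.65% (rho 0.16). With totals that include Rn45s, not plotted, rho was 0.06, -0.25 and -0.40 in ACV, Larynx and ACP.

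Both measures of a point come from 1 library and share a quantity, since counts outside Rn45s divide the ribosomal protein sum and are also what the Rn45s share leaves over. Counts outside Rn45s correlated with the Rn45s share at rho -0.73 in ACP, -0.72 in ACV and -0.70 in Larynx. The relation depended on the choice of divisor: with the members taken as percent of all counts, Rn45s included, rho was 0.06 in ACV, -0.25 in Larynx and -0.40 in ACP. Thinning each neuron to 200000 counts outside Rn45s evens depth but leaves the expected share of members unchanged, so it cannot address the shared quantity. It left out 3 Larynx neurons below that number and gave a rho of 0.65 in ACV, 0.65 in Larynx and 0.14 in ACP. With counts outside Rn45s held in a partial rank correlation, added after seeing the data, rho was 0.52 in ACV, 0.55 in Larynx and 0.02 in ACP. Against the plain Rn45s count, rho of the sum was 0.54 in ACV, 0.49 in Larynx and 0.00 in ACP.

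Other features of the libraries moved with the same axis. The summed markers of glia and blood vessels, 34 genes including Apoe, correlated with the Rn45s share at rho 0.35 in ACP, 0.44 in ACV and 0.35 in Larynx, and with the ribosomal protein sum at 0.24, 0.50 and 0.44. That marker sum ranged from 0.0373% to 1.4% in ACP, from 0.0411% to 3.6% in ACV and from 0.132% to 2.54% in Larynx, and of the 34 genes 14, 14 and 12 were detected in at least 50% of neurons. Gene by gene, the list had a median rho with the Rn45s share of 0.01 in ACP, 0.16 in ACV and 0.07 in Larynx. The median over all genes tested was -0.18, -0.04 and -0.12 in the same order. At 0.3 or above were 2 of 31, 4 of 31 and 2 of 29 genes tested, against 0.997%, 2.26% and 1.87% of all genes. The list's median thus lay above that of all genes in each type, and below the rho of the marker sum. With that sum held in a partial rank correlation, rho between ribosomal protein sum and Rn45s share was 0.57 in ACV, 0.59 in Larynx and 0.08 in ACP. The sum of 7 cholinergic motor neuron genes, Chat, Slc18a3, Slc5a7 and Isl1 among them, ran the other way. Its rho against the ribosomal protein sum was -0.35 in ACP, -0.54 in ACV and -0.57 in Larynx. Against the Rn45s share its rho was weak in ACP, at -0.09, and was -0.37 in ACV and -0.38 in Larynx. The part of other cells' RNA in the relation was not tested beyond these values.

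Several of the neurons at the top of the range had high glial and low cholinergic sums. The highest ACV neuron, at 4.73%, had an Rn45s share of 57.4%, a glial and vascular marker sum of 1.86% against an ACV median of 0.299%, and a cholinergic sum of 0.0607% against an ACV median of 0.168%. The next ACV neuron, at 4.07%, had 51.9%, 0.924% and 0.0771% for the same measures. The highest Larynx neuron, at 4.02%, had an Rn45s share of 80.4%, a marker sum of 0.872% against a Larynx median of 0.413%, and a cholinergic sum of 0.236%, close to the Larynx median of 0.246%. The next Larynx neuron, at 3.57%, had a marker sum of 0.555% and a cholinergic sum of 0.0165%. Other neurons went the other way in the glial and vascular sum. An ACV neuron at 2.55% had a marker sum of 0.259%, below the ACV median, although its cholinergic sum was low, at 0.078%. The ACV neuron with the highest marker sum, 3.6%, had a ribosomal protein sum of 0.601%.

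Taken gene by gene, the ribosomal protein genes stood to the right of other genes in their correlation with the Rn45s share. Of 79 members detected in at least 10% of ACV neurons, 54 had a rho of at least 0.3, against 2.26% of the 12810 genes tested in the same way, and 0 had a rho of -0.3 or lower, against 4.3% of all genes. In Larynx 54 of 78 members reached 0.3, against 1.87% of 12519 genes, and 0 lay at -0.3 or lower, against 12.7%. In ACP 9 of 79 members reached 0.3, against 0.997% of 12838 genes, and 4 lay at -0.3 or lower, against 21.9%. The genes compared are unlike the members in detection. Of the 83 members, 75 were detected in at least 90% of neurons in every type. Only 2539, 2245 and 2048 of all genes were detected that often in ACP, ACV and Larynx. A comparison with genes of equal detection was not made. The median rho of members was 0.40 in ACV, 0.44 in Larynx and -0.01 in ACP, and that of all genes was -0.04, -0.12 and -0.18. In each type the members' median was thus above that of all genes, which held in ACP only while Rn45s was left out of the totals. With totals that include Rn45s the members at 0.3 or above numbered 4 in ACV, 0 in Larynx and 0 in ACP, beside medians over members of 0.06, -0.14 and -0.32 and over all genes of -0.13, -0.26 and -0.25. With only the neurons of at most 900 Apoe counts they numbered 30, 60 and 14, in the same order of types, against 2.13%, 3.86% and 2.82% of all genes under that setting.

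**Figure D3:**
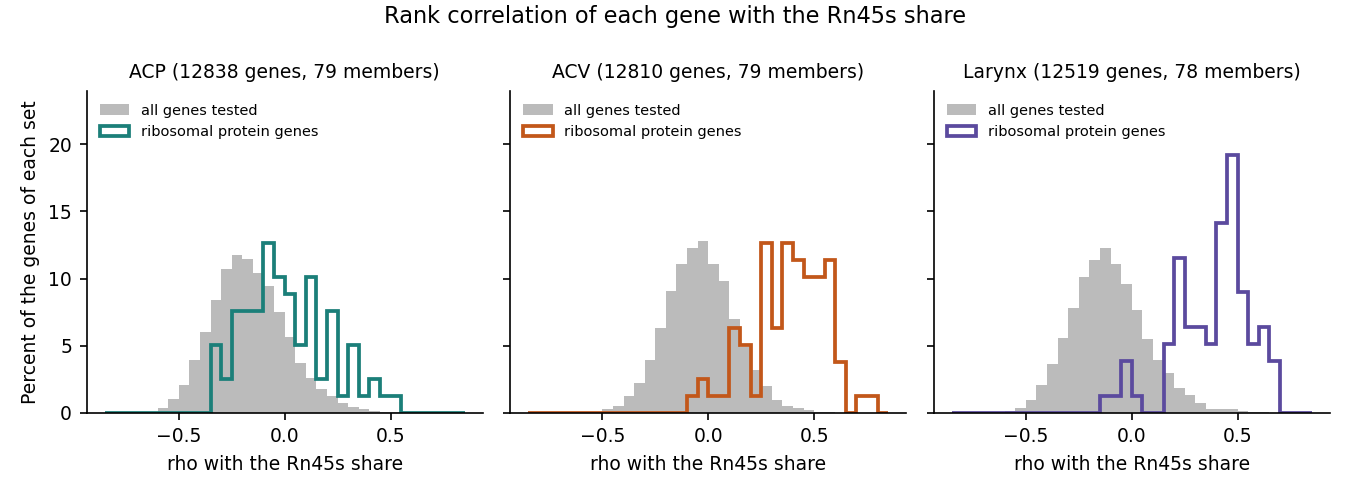
Distribution of Spearman's rho between the level of a gene and the Rn45s share over neurons, as percent of the genes of each set, for all genes tested (grey) and for the ribosomal protein genes (line), 1 panel per type. The members' median lay at 0.40 in ACV and 0.44 in Larynx, far right of the grey distribution, and at -0.01 in ACP, where the grey median was -0.18. With totals that include Rn45s, not plotted, the members' medians were 0.06, -0.14 and -0.32 in ACV, Larynx and ACP.

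Among the members with the highest mean rho over the types were Rpsa, Rps2 and Rps28. Rpsa, a small subunit protein near the mRNA exit that also serves as a laminin receptor, had a rho of 0.46 in ACP, 0.76 in ACV and 0.65 in Larynx. Its level, in counts per 10000 outside Rn45s, ranged from 0.25 to 10.1 in ACP (median 2.93), from 0.858 to 21.8 in ACV (median 3.17) and from 0.421 to 19.9 in Larynx (median 4.51). Larynx neurons were the higher on the whole, with most of the range shared by the types. Rps2, a small subunit protein at the mRNA entry, had a rho of 0.50, 0.43 and 0.64 in ACP, ACV and Larynx, and Rps28, a very short protein of the small subunit, had 0.45, 0.61 and 0.51.

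At the other end were Rpl30, Rpl7l1, Rps27 and Rpl27. Rpl27, a large subunit protein at a mean level of 0.463, 0.49 and 0.499 in ACP, ACV and Larynx, had a rho of -0.11, 0.04 and -0.04. Rpl7l1, a paralog of Rpl7 tied to nucleolar assembly of the large subunit, had -0.34, 0.08 and 0.01. Rpl30 and Rps27 were close to 0 counts throughout, so their rho carries little. Over the 78 members with a value in each type, mean rho correlated with mean level at 0.54 and with transcript length at -0.11. Members that scored high in 1 type tended to do so in another, with rho between the members' values of 0.68 for ACP and ACV, 0.68 for ACV and Larynx and 0.63 for ACP and Larynx, against 0.31, 0.39 and 0.17 over all genes.

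When 11857 genes measured in all types were ranked by their mean rho with the Rn45s share, 12 of the first 20 and 26 of the first 50 were ribosomal protein genes, which make up 0.658% of the ranked genes. Above Rpsa stood only Lars2, the gene for a mitochondrial leucyl-tRNA synthetase, at a mean rho of 0.71 and the microRNA locus Mir6236 at 0.63, both named after their values were seen. Rps4l, the pseudogene row with a mean level of 1.31, 1.1 and 1.09 in ACP, ACV and Larynx, had a rho of -0.14, -0.21 and -0.03.

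The members differed widely in counts, and a few of them took much of the sum. Rpl4, a large subunit protein lining the exit tunnel, took the most counts, before any correction for length, with a mean of 6.79 ± 3.38 counts per 10000 outside Rn45s in ACP (SD, n = 53 neurons), 8.71 ± 5.56 in ACV (SD, n = 98 neurons) and 6.73 ± 3.51 in Larynx (SD, n = 52 neurons). Its values over neurons ran from 0.00962 to 17.4 in ACP, from 0.644 to 37.3 in ACV and from 0.275 to 14.7 in Larynx, and the types overlapped over nearly all of that range. Rplp0, the base of the stalk that recruits elongation factors, had means of 4.41 ± 2.18, 6.5 ± 5.51 and 5.94 ± 4.3 in ACP, ACV and Larynx. Rps3, at the mRNA entry and with a role in DNA repair, had 3.75 ± 2.19, 4.22 ± 2.63 and 4.47 ± 3, and Rps14, of the small subunit platform, had 2.97 ± 1.34, 3.8 ± 2.83 and 4.78 ± 4.13. With Rpsa these made the 5 members with the most counts, which held 23.1% of the summed means.

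Per kilobase of transcript, which allows levels of different genes to be compared, the order changed: Rpl41, a very short peptide between the subunits, came first at 6.68 counts per 10000 per kilobase (mean of the types), followed by Rps14 at 6.45, Rps19 at 5.01 and Rpl4 at 4.82. 75 of the 83 members were detected in at least 90% of neurons in every type, and a neuron showed a median of 76 members in ACP, 77 in ACV and 75.5 in Larynx.

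**Figure D4:**
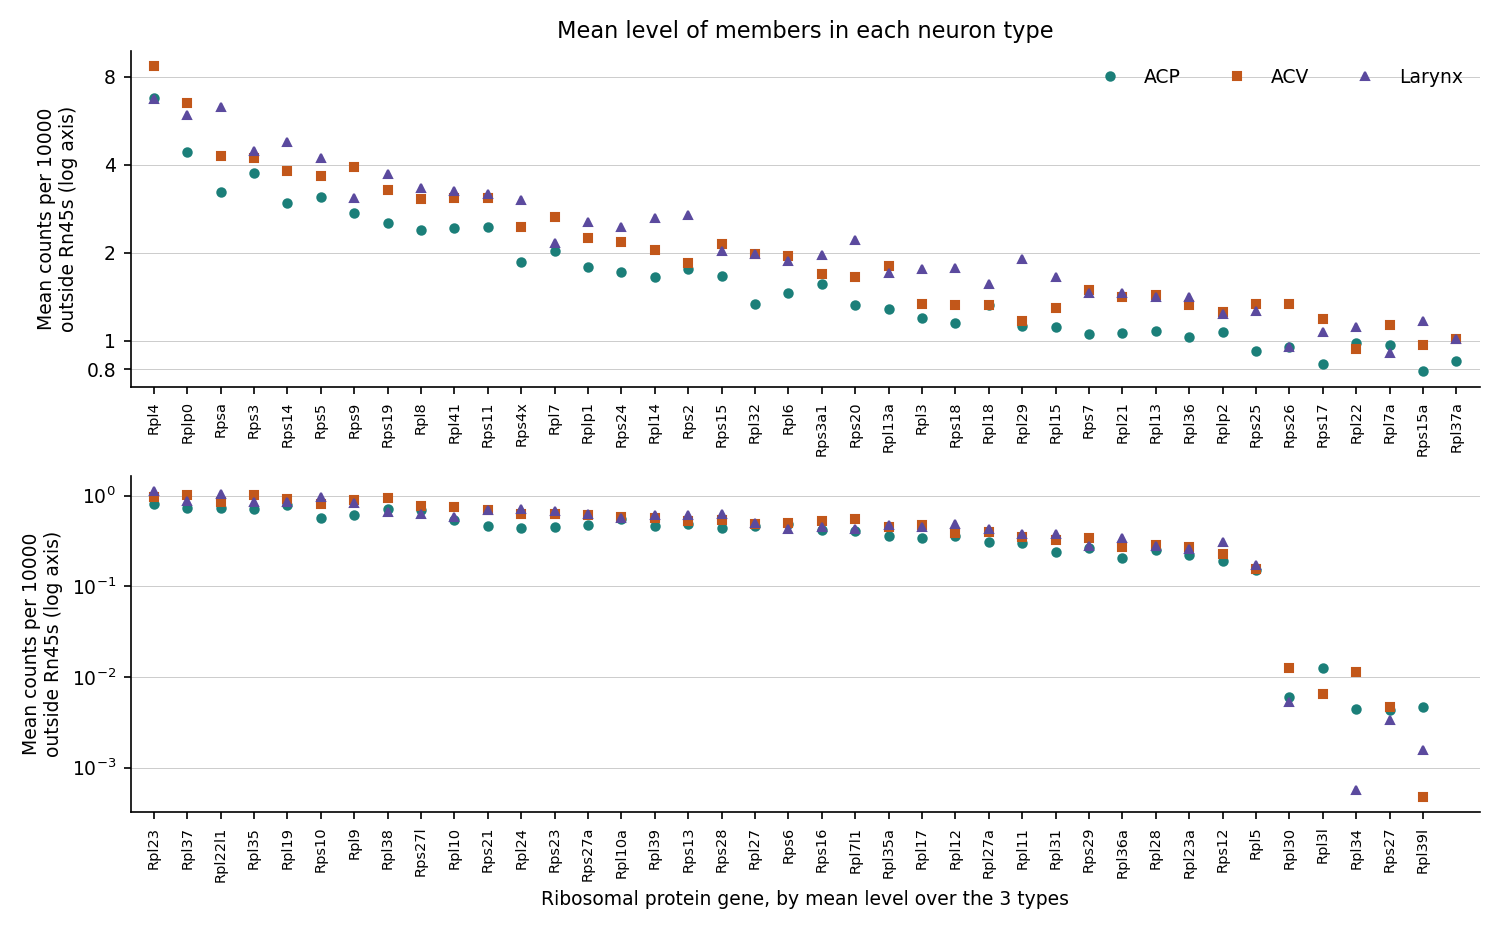
Mean level of 79 of the 81 members with counts in ACP (circles), ACV (squares) and Larynx (triangles) neurons, in counts per 10000 outside Rn45s on log axes, ordered by the mean of the types. Values are not corrected for length. They declined steadily from Rpl4 to Rpl5 and then broke off to 5 members near 0, of which Rpl3l had no count in Larynx and so has no triangle.

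At the low end, 7 members averaged under 0.05 counts per 10000. Rpl26 and Rpl10l had 0 counts, which by a limit of 3 neurons of the total allows a share of neurons with a count of up to 5.66% in ACP, 3.06% in ACV and 5.77% in Larynx. Rpl3l, a paralog of Rpl3 known from heart and skeletal muscle, had counts in 4 of 53 ACP neurons (7.55%, exact 95% interval 2.1% to 18.2%), 3 of 98 ACV neurons (3.06%, 0.636% to 8.69%) and 0 of 52 Larynx neurons (exact upper bound 6.85%). Rpl39l, known from testis, had counts in 2, 1 and 1 neurons of ACP, ACV and Larynx. Rpl10l, also known from testis, has its place with these tissue-restricted paralogs.

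Rps27, Rpl30, Rpl34 and Rpl26 encode standard parts of the ribosome and were nevertheless at or near 0. The level of Rps27 lay between 0 and 0.121 with a median of 0 in all types, in 86 counts over all neurons, and 98.5% of the 75-base stretches of its transcript occur identically in other annotated genes, mainly Rps27rt, itself at 0 counts. Rpl30 had 213 counts in all, and Rpl34 was detected in 14, 32 and 3 neurons of ACP, ACV and Larynx. The stretches shared with other genes were 57.5% in Rpl26, 41.4% in Rpl34 and 40.1% in Rpl30. Over the 83 members, however, 79 shared at least 1 such stretch and 32 shared more than 50%, among them Rps2 (71.1%) and Rps6 (84.1%), and level correlated with the shared percentage only at rho -0.21. How reads that fit several places were counted is not given in the sources used here, so the levels of members with near-identical pseudogenes are uncertain. In addition, exons of other genes lay on the same strand over 27 members, many of them small nucleolar RNAs, and on the opposite strand over 19.

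The remaining paralogs had counts in most neurons. Rps27l, a p53-responsive paralog of Rps27, averaged 0.696, 0.762 and 0.63 counts per 10000 in ACP, ACV and Larynx, and was detected in 49 of 53, 92 of 98 and 51 of 52 neurons. Rpl22l1, the paralog of Rpl22, averaged 0.723 ± 0.45, 0.84 ± 0.59 and 1.03 ± 0.841, beside 0.98 ± 1.64, 0.937 ± 1 and 1.11 ± 1.03 for Rpl22. Rpl7l1 was less often detected, with a count in 64.2% of ACP neurons (exact 95% interval 49.8% to 76.9%), 74.5% of ACV neurons (64.7% to 82.8%) and 53.8% of Larynx neurons (39.5% to 67.8%). Rps4x, the X-linked form of a small subunit protein, averaged 1.86 ± 1.27, 2.46 ± 2.07 and 3.03 ± 2.01.

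Between types, and with totals outside Rn45s, the members were lower in ACP than in either other type and close to even between ACV and Larynx. Levels were compared as the log2 ratio of mean counts per 10000 outside Rn45s with 0.1 added, over genes detected in at least 10% of neurons of either type, and a gene was counted past a ratio of 1.5-fold. The members tested numbered 79 in each pair. ACP over Larynx had a median of -0.36 over the members against -0.02 over 13256 genes. Below 0 lay 71 of 79 members, against 51.8% of all genes. Past 1.5-fold, 10 of 79 members were higher in Larynx, against 10.4% of all genes tested, and 0 were higher in ACP, against 8.86%. The share of members past the fold was thus near the background, and it was the median of the whole set that lay apart from that of all genes.

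For ACV over Larynx the median was -0.06 over members and -0.02 over 13297 genes. One member, Rpl29, was past 1.5-fold toward Larynx (1 of 79, against 13.3% of all genes) and 0 were past it toward ACV (against 8.57%). For ACP over ACV the median was -0.30 over members and 0.00 over 13356 genes. Below 0 lay 77 of 79 members, against 49.8% of all genes, while 0 members passed 1.5-fold toward ACV (against 5.14%) and 0 toward ACP (against 7.86%). ACP and Larynx neurons each enter 2 of these pairs, as do ACV neurons, so the pairs are not independent.

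**Figure D5:**
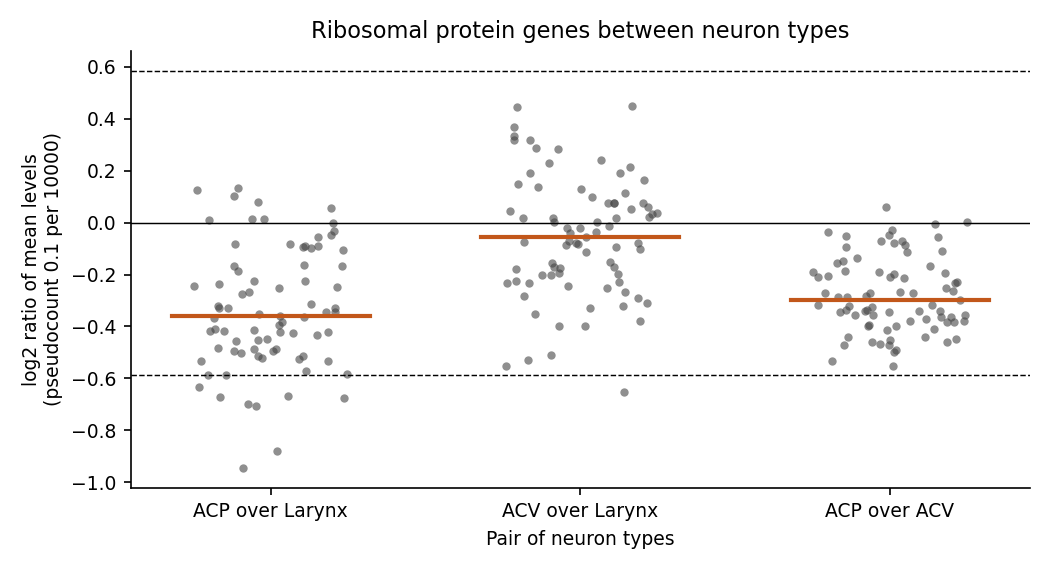
The log2 ratio of mean levels for each of the 79 members tested in each pair of types (points), with the median as a bar and dashed lines at 1.5-fold. Nearly all points lie below 0 in both pairs with ACP, with medians of -0.36 and -0.30, and around 0 for ACV over Larynx. With totals that include Rn45s, not plotted, the medians over Larynx were 0.29 for ACP and 0.44 for ACV.

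These medians turned on how neurons were averaged and scaled. With the median in place of the mean over neurons, the members' median log2 ratio was -0.14 for ACP over Larynx, -0.03 for ACV over Larynx and -0.11 for ACP over ACV, beside 0 over all genes in each pair. With totals that include Rn45s, the median over all genes itself moved to 0.29 for ACP over Larynx and 0.23 for ACV over Larynx, and that of the members to 0.29 and 0.44. With only the neurons of at most 900 Apoe counts, the members' medians were -0.47 for ACP over Larynx, -0.35 for ACV over Larynx and -0.03 for ACP over ACV.

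Among the members farthest toward Larynx against ACP were Rpsa at a log2 ratio of -0.94, Rpl29 at -0.70 and Rps20 at -0.70, and the first of these was the member with the highest rho with the Rn45s share. ACP was the higher in 25.9% of ACP-Larynx neuron pairs for Rpsa, in 34.4% for Rpl29 and in 30.7% for Rps20. Rps20, a small subunit protein of the head, ranged from 0.23 to 3.16 counts per 10000 in ACP (median 1.16), from 0.161 to 11.1 in ACV (median 1.11) and from 0.24 to 8.69 in Larynx (median 1.94). The types overlapped over nearly the whole ACP range, and the Larynx median stood above the others. Rpl29, of the large subunit, averaged 1.13 ± 0.67, 1.17 ± 0.729 and 1.9 ± 1.49 in ACP, ACV and Larynx. Over the 78 members, the log2 ratio of ACP over Larynx correlated with mean rho at -0.52.

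On the other side, Rps6, the S6 kinase substrate, had a log2 ratio of 0.14 for ACP over Larynx, Rps27l 0.13, Rpl38 0.10 and Rpl7a 0.08, all small beside the spread over neurons. For ACV over Larynx, Rps26 at 0.45, Rpl38 at 0.44, Rpl4 at 0.37 and Rps9 at 0.33 stood highest, and Rpl29 at -0.65, Rpsa at -0.55 and Rps2 at -0.53 lowest. Rps26 lies at the mRNA exit of the small subunit and Rps9 near its mRNA entry. Rpl38, a large subunit protein known for its part in translating Hox mRNAs in the embryo, averaged 0.716 ± 0.521, 0.933 ± 0.703 and 0.66 ± 0.518 in ACP, ACV and Larynx. For ACP over ACV the lowest were Rplp0 at -0.55, Rpl32 at -0.53, Rps9 at -0.50 and Rps25 at -0.49, and only Rpl22 at 0.06 and Rpl18 at 0.00 were not below 0, followed by Rps27 at -0.0053 and Rps6 at -0.03.

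The subunits kept near-equal shares. Large subunit members took 54.6% ± 3.59 of the ribosomal protein sum in ACP (SD, n = 53 neurons), 55.4% ± 3.33 in ACV (SD, n = 98 neurons) and 53% ± 3.24 in Larynx (SD, n = 52 neurons). Per neuron this share ran from 46% to 63.6% in ACP, from 46.3% to 62.7% in ACV and from 45.7% to 62.2% in Larynx, so the types overlapped and their means lay within 1 SD of each other. The large and small subunit sums varied together over neurons at rho 0.82 in ACP, 0.95 in ACV and 0.96 in Larynx. The large subunit share correlated negatively with the Rn45s share, at rho -0.45 in ACP, -0.26 in ACV and -0.37 in Larynx. In ACP the small subunit sum had a rho of 0.28 with the Rn45s share and the large subunit sum 0.08.

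Members also moved with each other from neuron to neuron. Among the 75 members detected in at least 90% of neurons, the median pairwise rho was 0.32 in ACP, 0.51 in ACV and 0.49 in Larynx, against 0.02 over pairs of all genes passing the same filter (2539, 2245 and 2048 genes in ACP, ACV and Larynx). Of the 2775 member pairs, 95.4% had a rho above 0 in ACP, 99.8% in ACV and 99.6% in Larynx, against 53.7%, 54.2% and 54.1% of pairs over all genes. Rpl41 had the highest mean rho with other members in ACP (0.48) and Larynx (0.60), and Rps14 in ACV (0.61). The lowest were Rpl3 in ACP (0.07), Rpl15 in ACV (0.12) and Rpl22 in Larynx (0.14). These members were named after their values were seen.

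As percent of the ribosomal protein sum, Rpsa correlated with the Rn45s share at rho 0.44 in ACP, 0.40 in ACV and 0.40 in Larynx, whereas Rpl4 had -0.46, -0.32 and -0.40. Neurons with a larger Rn45s share thus had relatively more Rpsa and less Rpl4 within the sum, in each type. Rpsa and Rpl4 were the extremes of the members compared in this way, with a mean rho over the types of 0.41 and -0.39. The other members lay between them.

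Other genes of the translation machinery were set beside the members. Among ribosomal proteins outside the symbol rule, Fau encodes a fusion of a ubiquitin-like protein with a small subunit protein, and Rpl36al is a copy of Rpl36a. Fau had a rho with the Rn45s share of -0.14 in ACP, 0.27 in ACV and 0.16 in Larynx, and Rpl36al had -0.05, 0.18 and 0.37. Their log2 ratios for ACP over Larynx were 0.13 for Fau and -0.35 for Rpl36al, both under 1.5-fold. Rack1 was not analysed here.

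Elongation factors, 7 genes led by Eef1a1, which brings aminoacyl-tRNA to the ribosome, correlated with the members' sum at rho 0.65, 0.78 and 0.63 in ACP, ACV and Larynx. Eef1a1 averaged 18.4 ± 6.65, 21 ± 10.9 and 23.1 ± 14.6 counts per 10000 and had a rho with the Rn45s share of 0.296, 0.45 and 0.34. Eef2, the translocase, had a rho of 0.21, 0.33 and 0.12. The median over the 7 genes was -0.10 in ACP, 0.26 in ACV and 0.16 in Larynx. At 0.3 or above were 0, 3 and 2 genes, against 0.997%, 2.26% and 1.87% of all genes. Another list, of 16 mRNAs outside the members known to carry the TOP motif, shares genes with the elongation and initiation lists, Eef1a1 among them. Its values are therefore not separate from those of these lists. Its sum had a rho with the Rn45s share of 0.30, 0.51 and 0.36. The median over its genes was -0.09, 0.20 and 0.19, with 0, 4 and 3 of 16 at 0.3 or above, against the same shares of all genes. Of these, Tpt1, a growth-related protein, had a rho of 0.00, 0.34 and 0.27 on its own, and Npm1, a nucleolar chaperone, had -0.11, 0.15 and 0.06.

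Initiation factors and the genes for making ribosomal RNA were compared in the same way. The sum of 30 initiation factors had a rho with the Rn45s share of -0.22 in ACP, 0.25 in ACV and 0.22 in Larynx. The sum of 52 genes of ribosomal RNA synthesis and processing had -0.25, 0.04 and 0.33. Of those, Ncl (nucleolin) had -0.04, 0.13 and 0.29 and Fbl (fibrillarin) -0.34, 0.11 and 0.21. Gene by gene, the median rho of these lists was -0.18, 0.05 and 0.02 for initiation factors and -0.22, -0.06 and -0.11 for ribosomal RNA synthesis, beside -0.01, 0.40 and 0.44 for the members in ACP, ACV and Larynx.

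The summed genes for mitochondrial ribosomal proteins (77) and for oxidative phosphorylation (84) correlated with the members' sum, at rho 0.62, 0.63 and 0.65 and at 0.62, 0.65 and 0.52, and less with the Rn45s share, at rho -0.24, 0.12 and 0.28 and at -0.26, 0.16 and 0.20. Gene by gene, the median rho with the Rn45s share was -0.23, -0.01 and -0.01 for mitochondrial ribosomal proteins. For oxidative phosphorylation it was -0.15, 0.19 and 0.13, and over all genes -0.18, -0.04 and -0.12. At 0.3 or above were 0, 3 and 4 of 77 former and 2 of 79, 17 of 79 and 15 of 78 latter genes. Over all genes this share was 0.997%, 2.26% and 1.87%. At -0.3 or lower were 22, 2 and 4 former and 12, 0 and 3 latter genes, against 21.9%, 4.3% and 12.7%. Past 1.5-fold between ACP and Larynx were 6 of 77 mitochondrial ribosomal protein genes (3 in each direction) and 1 of 79 oxidative phosphorylation genes tested, toward ACP. Of all genes, 8.86% were past it toward ACP and 10.4% toward Larynx. Their medians for that pair were 0.02 and -0.13, against -0.36 for the cytosolic ribosomal protein genes and -0.02 for all genes.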

How the data were processed

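Neurons were assigned to ACP, ACV and Larynx from the deposited annotation table. Gene counts of all neurons were used as deposited by the authors. Per the labels and the study's methods, reads were trimmed and aligned to mm10 with STAR (2.6.1d). Neurons with few aligned reads or many Apoe counts had been removed by the authors. The counting program, annotation and treatment of multi-mapped reads are not given in the sources used here. A second deposited table of normalized values was not used, since its columns did not sum to a fixed total.

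Members were summed and divided by the counts outside Rn45s. Limits on rank correlations, folds of 1.5 with a pseudocount of 0.1 and the 10% detection filter are described beside the results. No hypothesis test was run, because no animal is named for any neuron. Named genes were the 5 highest and 5 lowest nonzero levels, the 4 largest ratios in each direction per pair, the 4 highest and 4 lowest mean rho, paralogs and members without counts. A few genes that this rule names are not reported here. No 2 neurons had identical counts. The members, gene lists and rho limit of 0.3 were chosen with earlier results of these data known. Functions were tested on simulated data. Gene positions and shared 75-base stretches came from GENCODE and RefSeq, and Rn45s had no listed position. Python 3.11.15, numpy 2.4.6, scipy 1.17.1, pandas 2.3.3 and edgeR 4.0.16 (for TMM only) were used.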

Additional observations from a re-analysis of the deposited data

How the results depend on the processing

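The ribosomal protein sums, their differences and their rho with the Rn45s share, the subunit shares and the counts of members past the fold or rho limit were recomputed under alternatives (4 for each subunit share). Single-gene values, gene lists and correlations between members were not. Apart from 34 values that moved and 6 that changed sign, the recomputed values kept their direction and moved by less than 1 SD over neurons (sums, differences and subunit shares), by at most 0.1 (rho) or by at most 1.5 times (counts of genes). None of these values has a p-value. With totals that include Rn45s the ribosomal protein sum was 0.572% in ACP and 0.447% in Larynx, the difference became 0.125 points for ACP minus Larynx and 0.212 points for ACV minus Larynx, rho with the Rn45s share became -0.40 in ACP, 0.0596 in ACV and -0.25 in Larynx, members with a rho of at least 0.3 numbered 0, 4 and 0, and members past 1.5-fold numbered 6 for ACP against Larynx and 19 for ACV against Larynx, all toward ACP or ACV, beside 26% and 24.7% of all genes. With TMM library sizes the difference of ACV minus Larynx was 0.000239 points, with 6 members past 1.5-fold for ACP against Larynx and 0 for ACV against Larynx. Thinning gave 2 members for ACV against Larynx and 1 for ACP against ACV. Neurons of at least 1000000 counts gave 16, 3 and 2 members for ACP against Larynx, ACV against Larynx and ACP against ACV. Neurons of at most 900 Apoe counts (26 ACP, 44 ACV and 38 Larynx) gave 25 (ACP) and 18 (ACV) of 79 members against Larynx, beside 26.6% and 27.4% of all genes, a rho of 0.52 in ACV, and 14 (ACP) and 30 (ACV) members with a rho of at least 0.3. A pseudocount of 1 left 1 member for ACP against Larynx and 0 for ACV against Larynx, a pseudocount of 0.01 gave 2 for ACV against Larynx, and a fold of 2 left 0 in both. Medians over neurons, added after seeing the data like the 3 alternatives that follow, gave 4, 2 and 1 members. With counts outside Rn45s held, partial rho was 0.0171 in ACP, 0.52 in ACV and 0.55 in Larynx, and with the Rn45s count in place of its share rho was -0.0022, 0.54 and 0.49. With glial and vascular markers held it stayed within 0.1. Pearson's r in ACV was 0.55. Recounts of members at a rho of 0.3 or more were also added later. The causes were not tested, apart from divisors that include Rn45s by construction. No paired analysis was possible because no label names the animal of any neuron. Depth limits the Larynx values most, where counts outside Rn45s fell to 118492 in 1 neuron.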
